A study of Mus musculus with 6 samples.

Results

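The 36 genes described here encode proteins of the striated muscle contractile apparatus, its calcium handling and its hormones, in heart and skeletal muscle. They were chosen by name, and every member was matched to the arrays, by 61 of 45037 probe sets and among 18193 genes with a probe set of a single symbol. The arrays, of an Affymetrix design, hold whole lung RNA of mouse fetuses at E18.5, shortly before birth, with 1 array for each of 6 animals. The 3 lungs labelled Nfib f/f carried Nfib with loxP sites and no Cre; Nfib encodes nuclear factor I B, a transcription factor needed for lung maturation. The 3 lungs labelled Nfib f/f, Dermo1-Cre carried the same floxed alleles and Cre recombinase driven from the Dermo1 (Twist2) locus, which is active in mesenchyme, so the deletion is aimed at those cells and not at every lung cell. The labels call the arrays of a group biological replicates, and the arrays are named control 1 to control 3 and Cre 1 to Cre 3 below. Littermates, sex and dissection are not given in the sources used here. All levels are log2 MAS5 signals as deposited, and all differences are log2 differences, Cre minus control. A log2 level of 4.0, the 40th percentile of probe set means and the minimum mean for a test, is called the filter level, and signals below it carry much noise.

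Cardiac and skeletal muscle share a common contractile plan, the sarcomere, in which myosin filaments pull on actin filaments under the control of troponin and calcium. Atria, ventricles and skeletal fibres use different genes for the same parts, so the set of myosin light chains, troponins and hormones expressed tells the muscle types apart. A lung has little striated muscle of its own. In mice the walls of the pulmonary veins hold a sleeve of cardiac muscle with atrial gene expression, and the heart, diaphragm and chest wall lie next to the lung. In whole lung RNA, fewer cells of a type and less RNA per cell cannot be told apart.

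The members were read in 5 groups. These were 4 atrial genes, 3 genes of ventricle and slow skeletal fibres, 9 genes active across the heart, 16 genes shared by heart and skeletal muscle, and 4 skeletal genes. Promoter sequences are shown for Myl7 of the atrial and Myl3 of the ventricular genes, for the shared genes Actc1, which had the same order of arrays as Myl7, and Acta1, which was high on a single array, and for Pgam2, which passed the test. Each is the 250 bases before the RefSeq start of the gene (build GRCm38.p6), 5′ to 3′ on the strand of the gene. Capitals mark a CArG box, the site bound by serum response factor, and in Pgam2 a site of the MEF2 family of muscle transcription factors.
Myl7, chr11:5898783-5899032, minus strand: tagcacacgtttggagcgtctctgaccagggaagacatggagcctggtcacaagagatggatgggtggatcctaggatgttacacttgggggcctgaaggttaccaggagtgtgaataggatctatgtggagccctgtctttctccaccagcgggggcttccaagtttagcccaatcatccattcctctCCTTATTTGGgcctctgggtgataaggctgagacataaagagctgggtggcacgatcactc
Myl3, chr9:110763428-110763677, plus strand: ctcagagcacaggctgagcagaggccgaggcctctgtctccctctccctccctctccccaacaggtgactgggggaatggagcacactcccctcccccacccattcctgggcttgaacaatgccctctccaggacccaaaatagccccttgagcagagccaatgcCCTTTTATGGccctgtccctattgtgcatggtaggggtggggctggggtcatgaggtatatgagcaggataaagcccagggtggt
Actc1, chr2:114052876-114053125, minus strand: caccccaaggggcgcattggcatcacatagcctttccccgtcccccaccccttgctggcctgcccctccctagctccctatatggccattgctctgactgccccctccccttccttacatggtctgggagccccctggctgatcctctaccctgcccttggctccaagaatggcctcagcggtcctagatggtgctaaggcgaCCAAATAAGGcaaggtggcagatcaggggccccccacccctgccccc
Acta1, chr8:123894776-123895025, minus strand: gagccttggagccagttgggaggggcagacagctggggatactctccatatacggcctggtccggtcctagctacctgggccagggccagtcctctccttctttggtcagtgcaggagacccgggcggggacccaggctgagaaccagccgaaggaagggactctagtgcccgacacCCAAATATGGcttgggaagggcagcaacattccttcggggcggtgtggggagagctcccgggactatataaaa
Pgam2, chr11:5803797-5804046, minus strand: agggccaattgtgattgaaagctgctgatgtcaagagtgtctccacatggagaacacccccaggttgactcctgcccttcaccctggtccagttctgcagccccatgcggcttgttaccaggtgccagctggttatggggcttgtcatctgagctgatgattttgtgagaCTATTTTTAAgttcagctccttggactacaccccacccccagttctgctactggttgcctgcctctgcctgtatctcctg

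RefSeq promoter windows were found for 32 of the 36 members, in 38 windows because some genes have several starts; Sln, Tcap, Trdn and Tnnt3 had none. A CArG box stood in 7 of the 38 windows, from the genes Myl7, Myl3, Actc1, Acta1, Ldb3 and Myom1, against 1.47% of all 32851 windows of this length. The MEF2 site stood in 5 of the 38, those of Ttn, Mybpc3, Casq2, Myoz2 and Pgam2, against 2.92% of all windows. The E-box CAGCTG, bound by myogenic factors, stood in 13 of the 38 against 13% of all windows. Each of the 3 patterns equals its own reverse complement, so a match counts for both strands. A match is a description and not a site shown to be bound. The CArG box genes did not share a single pattern across the arrays, as the values below show: Myl7 followed the atrial order, Myl3 did not, and Acta1 was high on control 1 only.

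The level of the striated muscle genes differed widely between lungs of the same genotype. Control 1 held the highest value for 34 of the 36 members, and control 1 followed by control 2 held the top ranks for 27, where 14.6% and 3.86% of all tested probe sets showed these patterns. Hspb7 was highest on control 2 (10.5% of all tested probe sets), Myl2 on control 3 (23.8%) and no member on Cre 3 (19.7%). The lowest value was on Cre 1 for 23 members (12.7%), on Cre 2 for 9 (16.5%), on control 3 for 3 (21.9%) and on Cre 3 for 1 (20.8%). Within the Cre-labelled lungs, Cre 3 was highest for 32 members (35.4% of all tested probe sets). Control 3 was the lowest control for 30 members (35.8% of all tested probe sets), and Cre 3 stood above control 3 for 27 (47.7%). These 27 include Ckmt2, Myh3, Tnnc2 and Tnnt3, which lay below the filter level on both arrays, so their order there cannot be read. The full order control 1, control 2, Cre 3, control 3, Cre 2, Cre 1 was found for 15 members and for 0.2% of all tested probe sets. For most members the order of the arrays therefore ran across the genotypes. For 9 members every Cre-labelled lung lay below every control (12.8% of all tested probe sets). All 6 arrays had the same trimmed mean signal, and their median log2 signals lay between 4.80 and 5.03. The lung marker list (10 genes, among them Sftpc and Nkx2-1) had no gene below the filter level on all arrays, and its median deviation ranged over 0.89; Sftpb, Sftpa1 and Aqp5 of that list fell (limma adjusted p 0.015, 0.048 and 0.012), and Sftpc had the next widest range. With each array left out in turn, the calls of Sftpb and Aqp5 held in 5 of 6 fits and that of Sftpa1 in 1 of 6. The brightest Nfib probe set read 10.24, 10.32 and 10.17 in control 1 to 3 and 11.24, 11.16 and 11.49 in Cre 1 to 3, so the signal of the targeted gene was higher in the lungs labelled with Cre. The sources used here do not place its probes relative to the deleted part, so the genotypes are used as labelled.

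**Figure D1:**
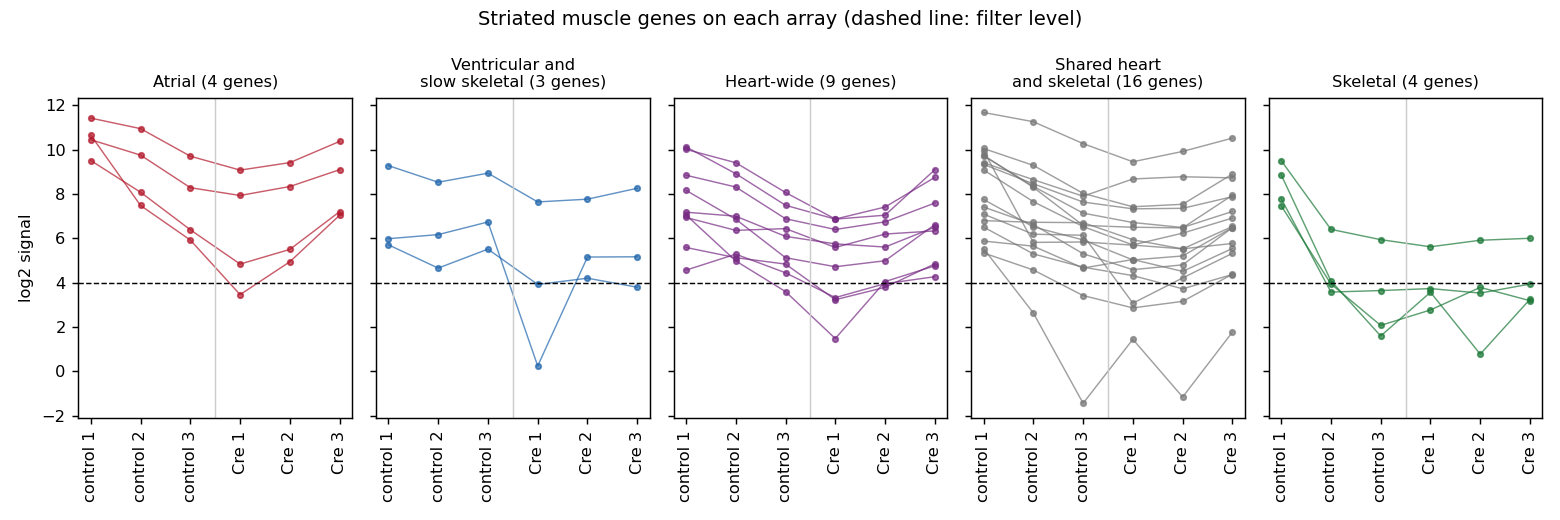
Log2 signal (vertical axis) of each of the 36 striated muscle genes on the 6 arrays (horizontal axis), in 5 panels by gene group. Each line joins the values of 1 gene and has no meaning between arrays, and the dashed line is the filter level of 4.0. Atrial genes were high on control 1, control 2 and Cre 3, and skeletal genes on control 1 alone.

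Atrial genes were graded over the arrays, and the groups overlapped for all 4. Myl7, the regulatory light chain of atrial myosin, measured 11.43, 10.95 and 9.71 in control 1 to 3 and 9.08, 9.42 and 10.38 in Cre 1 to 3. Cre 3 thus exceeded control 3, and the range over the 6 arrays was 5.09-fold. Myl4, the essential light chain of atrial and fetal myosin, read 10.45, 9.76 and 8.29 in the controls and 7.94, 8.34 and 9.10 in the Cre-labelled lungs, and here Cre 2 and Cre 3 both lay above control 3. The range was 5.72-fold.

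The other atrial genes had wider ranges. Sln encodes sarcolipin, which inhibits the calcium pump of atrial and skeletal sarcoplasmic reticulum. It measured 9.51, 8.08 and 6.39 in the controls and 4.84, 5.50 and 7.20 in the Cre-labelled lungs, a range of 25.5-fold. Nppa encodes atrial natriuretic peptide, a hormone that lowers blood pressure and is made by fetal atria and trabeculated ventricle. It read 10.66, 7.48 and 5.92 in the controls and 3.46, 4.95 and 7.04 in the Cre-labelled lungs. Control 1 stood 3.17 above the next array, and control 1 was at least 101-fold above Cre 1, whose value was taken at the filter level. The median deviation of the atrial genes from their own means was 2.03 on control 1, 0.84 on control 2 and -0.60 on control 3, and -1.58, -1.08 and 0.25 on Cre 1 to 3. The group means for Myl7 were 10.69 ± 0.89 (SD, n = 3) and 9.62 ± 0.67 (SD, n = 3). Their difference gave p = 0.2 in an exact permutation test, two-sided, in which 0.1 is the smallest value that 3 against 3 arrays allow.

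Genes of ventricle and slow skeletal fibres had a different order on their brightest probe sets, with control 3 among the high arrays and no overlap between the groups. Myl2, the regulatory light chain of ventricular and slow skeletal myosin, read 5.99, 6.17 and 6.74 in control 1 to 3 and 0.24, 5.16 and 5.17 in Cre 1 to 3. Its highest value was on control 3, the array that was the lowest control for each atrial gene. The value of Cre 1 lay far below the filter level and its size is not reliable. Myl3, the essential light chain of the same myosins, measured 5.71, 4.66 and 5.51 in the controls and 3.92, 4.20 and 3.80 in the Cre-labelled lungs, where 2 of the 3 values were under the filter level. Other Myl3 probe sets did not pass the filter. On the brighter of these the groups overlapped, with control 2 at 3.56 and Cre 3 at 3.82, both under the filter level. On the dimmer one they did not overlap. Myh7, the slow or beta myosin heavy chain, which fetal ventricle and slow fibres use, read 9.28, 8.53 and 8.94 against 7.64, 7.77 and 8.26. The lowest control and the highest Cre-labelled lung were 8.53 and 8.26, so the gap between the groups was narrow. The median deviations of the 3 genes were 1.08, 0.13 and 0.88 on the controls and -0.76, -0.43 and -0.14 on Cre 1 to 3. The difference in order between atrial and ventricular genes was not tested.

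The median of the genes active across the heart followed the atrial order, and 4 of the 9 genes, Tnni3, Tnnt2, Pln and Casq2, had the full order of arrays of Myl7. For Pln this order rested on a small gap, 4.85 on Cre 3 against 4.84 on control 3. The other tested Pln probe set did not have it, at 5.86, 4.82 and 4.87 in the controls and 0.93, 3.54 and 4.78 in the Cre-labelled lungs. The median deviation of the 9 genes was 1.38, 0.66 and -0.35 on control 1 to 3 and -1.34, -0.75 and 0.28 on Cre 1 to 3, a range of 6.60-fold. Myh6, the fast or alpha myosin heavy chain of atria and mature ventricle, read 10.13, 8.92 and 7.49 in the controls and 6.87, 7.04 and 9.10 in the Cre-labelled lungs, so Cre 3 ranked next after control 1. A probe set whose annotation gives both Myh7 and Myh6, and which was therefore assigned to neither, read 9.55, 8.41 and 7.78 against 6.80, 6.91 and 8.11. Tnni3, the troponin I of heart muscle, read 8.85, 8.32 and 6.89 against 6.40, 6.75 and 7.59. It was above the filter level on every array. Nppb, the gene of the B-type natriuretic peptide, measured 7.06, 4.98 and 3.60 in the controls and 1.48, 4.05 and 4.76 in the Cre-labelled lungs. Only control 1 was far above the filter level for this hormone gene, by 2.08 over the next array.

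The other 6 heart-wide genes had ranges between 2.55-fold and 10.9-fold. The widest was in Casq2, cardiac calsequestrin, which buffers calcium in the sarcoplasmic reticulum, followed by Tnnt2, cardiac troponin T, at 8.85-fold. Ryr2, the calcium release channel of the heart, had the narrowest range and groups that did not overlap, with 6.94, 6.36 and 6.44 against 5.59, 6.19 and 6.34. Pln, the phospholamban brake on the calcium pump, and Mybpc3, cardiac myosin-binding protein C, were highest on control 1, and Hspb7, a small heat shock protein of heart and muscle, was highest on control 2. Where a gene had other probe sets past the filter, 5 of these 7 also read highest on control 1. The exceptions were an Hspb7 probe set, highest on Cre 3, and a dim Ckm probe set, highest on Cre 1. This Hspb7 probe set read 4.74, 4.39 and 3.79 in the controls and 4.26, 3.74 and 4.82 in the Cre-labelled lungs, so its groups overlapped. Its mean of 4.29 was close to the 4.31 of the brightest Hspb7 probe set.

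**Figure D2:**
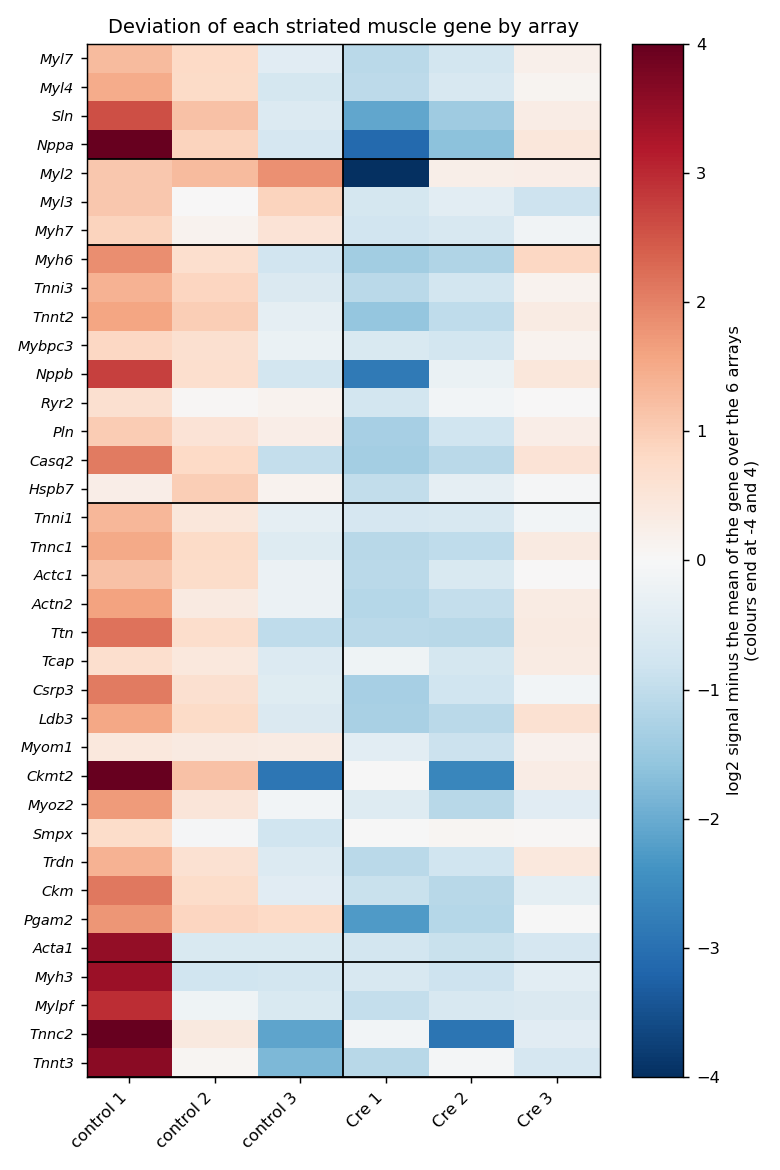
Deviation of the log2 signal of each member (rows, ordered by group) from its own mean over the 6 arrays (columns), with red above and blue below the mean and colours ending at -4 and 4. The control 1 column is above the gene mean for every member, and the skeletal rows at the bottom are far higher there than on the other arrays.

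Among the 16 genes shared by heart and skeletal muscle, every one was highest on control 1, and 12 were higher on Cre 3 than on control 3. For Ckmt2, among these 12, both values lay below the filter level. Actc1, cardiac alpha-actin, which fetal skeletal muscle also makes, measured 11.68, 11.26 and 10.28 in control 1 to 3 and 9.46, 9.92 and 10.52 in Cre 1 to 3. Ttn, the giant titin that spans the sarcomere, read 9.75, 8.30 and 6.58 against 6.50, 6.47 and 7.95, and both of its other tested probe sets were also highest on control 1. Tnnc1, the troponin C of heart and slow fibres, Actn2, the alpha-actinin of the Z-disc, and Ldb3, a Z-disc adaptor, had the same full order of arrays as Myl7. Tnni1, slow skeletal and fetal cardiac troponin I, and Csrp3, the muscle LIM protein, had that order too.

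Several shared genes departed from this order. Smpx, a small muscle protein, read 9.41, 8.65 and 7.90 in the controls and 8.68, 8.78 and 8.73 in the Cre-labelled lungs, so the Cre-labelled lungs lay close together, between the highest and the lowest control. Myom1, the myomesin of the M-band, was level in the controls at 6.80, 6.73 and 6.71 and lower at 5.94, 5.52 and 6.54 in the Cre-labelled lungs. Myoz2, a Z-disc protein of heart and slow fibres that binds calcineurin, was also apart between the groups, at 6.51, 5.30 and 4.70 against 4.32, 3.72 and 4.37. Pgam2, the muscle phosphoglycerate mutase of glycolysis, measured 7.09, 6.19 and 6.14 in the controls and 3.08, 4.21 and 5.32 in the Cre-labelled lungs. The controls were closer to each other for Pgam2 than the Cre-labelled lungs were, and no Cre-labelled value reached a control; Cre 1 was below the filter level.

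The other shared genes differed in how far control 1 stood apart. Acta1, skeletal alpha-actin, which fetal heart also expresses, read 9.95 on control 1, 5.82 and 5.84 on control 2 and 3, and 5.69, 5.53 and 5.77 on Cre 1 to 3. The 5 other arrays thus lay within a narrow band and control 1 stood 4.11 above them. Ckm, muscle creatine kinase, was graded, at 9.72, 8.35 and 7.14 against 6.71, 6.49 and 7.21. Ckmt2, the mitochondrial creatine kinase of the sarcomere, did not pass the filter; it read 5.54, 2.63 and -1.44 in the controls and 1.45, -1.16 and 1.77 in the Cre-labelled lungs, with only control 1 above the filter level. Trdn, triadin of the calcium release complex, did not pass either; its brightest probe set was highest on control 1 at 5.34. Tcap, the titin cap telethonin, read 5.88, 5.65 and 4.66 against 5.045, 4.51 and 5.54, so control 1 was close to control 2 and Cre 3.

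Skeletal genes were far higher on control 1 than on any other array. Mylpf, the regulatory light chain of fast skeletal myosin, read 9.51 on control 1, 6.41 and 5.94 on control 2 and 3, and 5.62, 5.92 and 6.003 on Cre 1 to 3; the smaller differences among the other arrays followed the atrial order. Myh3, the embryonic myosin heavy chain of developing fibres, read 7.79 on control 1 and between 3.53 and 3.94 on the others, all below the filter level, so it passed the filter through control 1 alone. Tnnc2, fast skeletal troponin C, read 8.87 on control 1, 4.08 and 1.59 on control 2 and 3, and 3.57, 0.77 and 3.25 on Cre 1 to 3. Tnnt3, fast skeletal troponin T, read 7.47 on control 1, 3.94 and 2.07 on control 2 and 3, and 2.77, 3.79 and 3.19 on Cre 1 to 3.

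Tnnc2 and Tnnt3 did not pass the filter, since their means fell below it. With values under the filter level set to it, control 1 exceeded the lowest array by at least 29.2-fold for Tnnc2, 13.9-fold for Myh3 and 11.1-fold for Tnnt3. For Myh3 and Tnnt3 no array other than control 1 reached the filter level, so the order of those arrays cannot be read. Of all 27022 tested probe sets, 14 (0.0518%) stood at least 4-fold above every other array on control 1, and 5 of these were members, Acta1, Myh3, Mylpf, Nppa and Nppb. No tested probe set did so on any of the other 5 arrays.

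Other skeletal muscle genes were listed with them, 23 genes that define skeletal muscle. Of these, 17 were highest on control 1, against 14.6% of all tested probe sets. However, 9 of the 23 lay below the filter level on all arrays, so their order cannot be read. The summed linear signal of the list was 2088 on the highest control array, 259.9 on the lowest control array and 220.7 to 285.3 on the Cre-labelled arrays. The widest ranges were in Myh8, the perinatal myosin heavy chain (7.72 on control 1, at most 3.13 elsewhere), Tnni2, fast troponin I (8.21, at most 3.53 elsewhere), and Myl1, the fast essential light chain (9.82, at most 6.55 elsewhere). The regulators of the skeletal lineage Myod1, Myog, Myf5 and Pax7 were below the filter level on all arrays, control 1 included. Myf6, another regulator of that family, reached it on control 1 only, at 4.09, with at most 2.47 elsewhere. Of the 3 tested genes of this list none passed the limma threshold, and 1 had an unadjusted p under 0.05. Among them, Tnnt1 and Casq1 were graded over the arrays and not high on control 1 alone. Tnnt1 read 7.36, 6.54 and 5.76 in the controls and 5.395, 5.34 and 6.15 in the Cre-labelled lungs. Casq1 read 6.62, 5.60 and 4.90 against 4.40, 4.96 and 5.17.

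The median of a list of transcription factors and channels of the heart moved little. Among 23 such genes matched, 17 were tested, 11 of them had a lower Cre mean, and their median deviation ranged over 0.38 between arrays. The list held bright genes of narrow range, among them Atp2a2, Gata6 and Mef2c (0.36, 0.305 and 0.37), so its median says little about the others. Of the 23, 8 were highest on control 1 and 6 on Cre 3, against 14.6% and 19.7% of all tested probe sets. Those highest on control 1 included Corin (6.58, next 5.10), Popdc2 (5.75, next 4.86) and Smyd1 (5.59, next 4.80). Tbx20, a cardiac T-box factor, did follow the order of the atrial genes, at 6.42, 5.87 and 4.65 against 3.92, 4.26 and 5.83, with a log2 difference that did not pass (-0.98 ± 0.55 SE, limma adjusted p = 0.37). Nkx2-5, the early cardiac homeobox factor, read 4.81, 4.70 and 5.32 against 4.21, 4.47 and 3.71, with Cre 3 below the filter level and not among the high arrays. Irx4, which marks ventricle, was below the filter level on all arrays. Bmp10, an atrial growth factor, and Kcne1, a potassium channel subunit, which with Tbx20 had the widest ranges of the list, averaged below the filter level. The gene of the list that fell was Dkk3 (-0.70 ± 0.16 SE, limma adjusted p = 0.045), which kept its call in 1 of 6 fits that left out an array and encodes a secreted protein of the dickkopf family that many mesenchymal cells make.

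A further list held 22 matched sarcomere and muscle metabolism genes. Of these, 19 were highest on control 1, all 19 tested ones had a lower Cre mean, and none passed the limma threshold, with 4 at an unadjusted p under 0.05. Ankrd1, a stress-responsive ankyrin repeat protein of the sarcomere, read 9.21, 7.48 and 5.97 in the controls and 4.65, 5.15 and 7.13 in the Cre-labelled lungs. Myom2, the second myomesin, read 7.11, 5.56 and 4.81 against 3.11, 3.95 and 5.19. Myot, myotilin of the skeletal Z-disc, read 5.99 on control 1 and was below the filter level on every other array.

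Genes outside the members were ranked by the Pearson correlation of their values over the 6 arrays with the median deviation of the heart-wide genes, among 200 tested genes with a range of at least 2. The highest values were those of Ankrd1 (0.99), Myom2 (0.98), Cox6a2 (0.98) and Tbx20 (0.98), followed by Tnnt1, Casq1, Cox8b and Myl1. The first 8 of the ranking were all on the lists of heart or skeletal muscle genes. The next were Fgf12 (0.90), a fibroblast growth factor homologue that binds sodium channels, Fabp4 (0.88), a fatty acid-binding protein of capillaries and fat, Apobec2 (0.88), a muscle deaminase family gene, and the magnesium transporter gene Slc41a2 (0.87). These 6 points share arrays and scaling with the heart-wide genes and are a description. The lists were chosen with earlier results of these data known, so the place of their genes in the ranking is no independent evidence. By the same measure the atrial members had values between 0.97 and 0.99, Myl2, Myl3 and Myh7 had 0.67, 0.55 and 0.80, and Myh3 had 0.70.

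Markers of other tissues were read on the same arrays, because they moved with some arrays and not with others. Smooth muscle genes, among them Acta2 and Myh11, differed little between arrays as a list: the median deviations of the 10 genes lay between -0.16 and 0.18, and their summed signal was 8456 to 8977 in the controls and 9149 to 9322 in the Cre-labelled lungs. Synpo2, an actin-binding protein of that list, rose (1.56 ± 0.20 SE, limma adjusted p = 0.0076), and Hhip, a hedgehog inhibitor, fell (-0.44 ± 0.10 SE, limma adjusted p = 0.045). The call of Synpo2 held in all 6 fits that left out an array and that of Hhip in 0 of 6. Cnn1 and Smtn, which with Synpo2 had the widest ranges there, did not pass. Liver genes took another order, with all 7 highest on control 2. Their median deviations were -1.93, 2.06 and 0.35 on control 1 to 3 and -0.61, -1.38 and 1.36 on Cre 1 to 3, so control 1, the highest array for most striated muscle genes, was among the low arrays for liver. Over the 4 liver genes that passed the filter, Cre 2 was lowest at -1.61 and control 1 next at -1.55. Afp, alpha-fetoprotein of fetal liver and yolk sac, read 2.13 on control 1 and 8.09 on control 2, and Apoa1 and Fgb, an apolipoprotein and a fibrinogen chain, had the next widest ranges. The summed liver signal was 67.4 to 926 in the controls and 83.03 to 455 in the Cre-labelled lungs.

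Bone genes shared the array of the skeletal genes. Among the 14 probe sets that stood at least 4-fold above all other arrays on control 1 were those of Ibsp, bone sialoprotein, and of Acp5, Ctsk and Mmp9, enzymes of bone-resorbing osteoclasts; 2 of the 14 had no gene symbol used here. A bone and osteoclast list was therefore added after these values had been seen, and its direction is no independent evidence. Of its 14 matched genes, 13 were highest on control 1, and the summed signal was 424 to 2389 in the controls and 304 to 378 in the Cre-labelled lungs. Mmp13, a collagenase of growth cartilage and bone, read 7.82 on control 1 and at most 1.92 elsewhere, and Dmp1, a matrix protein of osteocytes, 8.27 and at most 3.99. Phex, an endopeptidase gene of bone and other cells, was the list's gene that fell (-0.90 ± 0.12 SE, limma adjusted p = 0.0083), and it read 8.24, 8.12 and 7.99 in the controls. Col10a1, Ocstamp and Calcr were below the filter level on all arrays. The part of bone, liver or other neighbouring tissue in the striated muscle values was not tested.

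The other tissue lists were mixed. Below the filter level on all arrays were 2 of 4 brown fat genes (Ucp1 and Adipoq), 4 of 7 thymus genes (Cd3e, Cd3g, Rag2 and Dntt), 4 of 7 genes of oesophagus and skin (Krt13, Krt14, Krt1 and Sprr3), Matn1 of 6 cartilage genes and Hba-a1 of 3 erythroid genes. Other genes of these lists were above it on every array, namely Cd8a of thymus, the keratin gene Krt10, the cartilage matrix genes Col2a1, Col9a1 and Hapln1, and the erythroid genes Alas2 and Slc4a1. Col2a1, the collagen of cartilage, read 6.06, 4.08 and 4.47 on control 1 to 3 and 4.605, 4.71 and 4.975 on Cre 1 to 3, highest on control 1. The widest ranges of these lists were those of genes just named and of Cidea, Comp, Ptcra and Rag1, and none of these lists had a gene past the limma threshold; an unadjusted p under 0.05 was found for 1 of 3 tested cartilage genes and 1 of 2 tested erythroid genes. Summed signals of the 4 matched brown fat genes were 27.9 to 35.0 in the controls and 18.6 to 23.1 in the Cre-labelled lungs. Those of the 7 thymus genes were 47.0 to 97.5 and 69.7 to 114, and those of the 7 keratin and skin genes 217 to 221 and 231 to 263. The 6 cartilage genes summed to 369 to 649 and 510 to 657, with 4 highest on control 1, and the 3 erythroid genes to 940 to 1067 and 441 to 829. The 6 genes of mesothelium and epicardium summed to 6991 to 8569 and 5371 to 6204. Tcf21, the brightest at 11.77 to 12.31, weighed most in these sums, so they do not describe the list evenly. Msln and Krt19 of that list fell (limma adjusted p 0.0049 and 0.039, held in 6 and 1 of 6 fits that left out an array). Wt1 (0.47 ± 0.30 SE) and Lrrn4 (-0.77 ± 0.35 SE), also of wide range, went opposite ways and did not pass. For actin, the 3′ control probe set minus the 5′ one, a measure that grows with RNA degradation, was 0.35, 0.37 and 0.52 on control 1 to 3 and 0.41, 0.44 and 0.83 on Cre 1 to 3; control 1 and control 2 thus had the lowest values and Cre 3 the highest. The same measure for Gapdh was -0.16, -0.20 and -0.05 on control 1 to 3 and -0.34, -0.32 and 0.07 on Cre 1 to 3, so Cre 1 and Cre 2 were lowest there and Cre 3 was highest for both genes. The part of RNA quality in the order of the arrays was not tested.

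**Figure D3:**
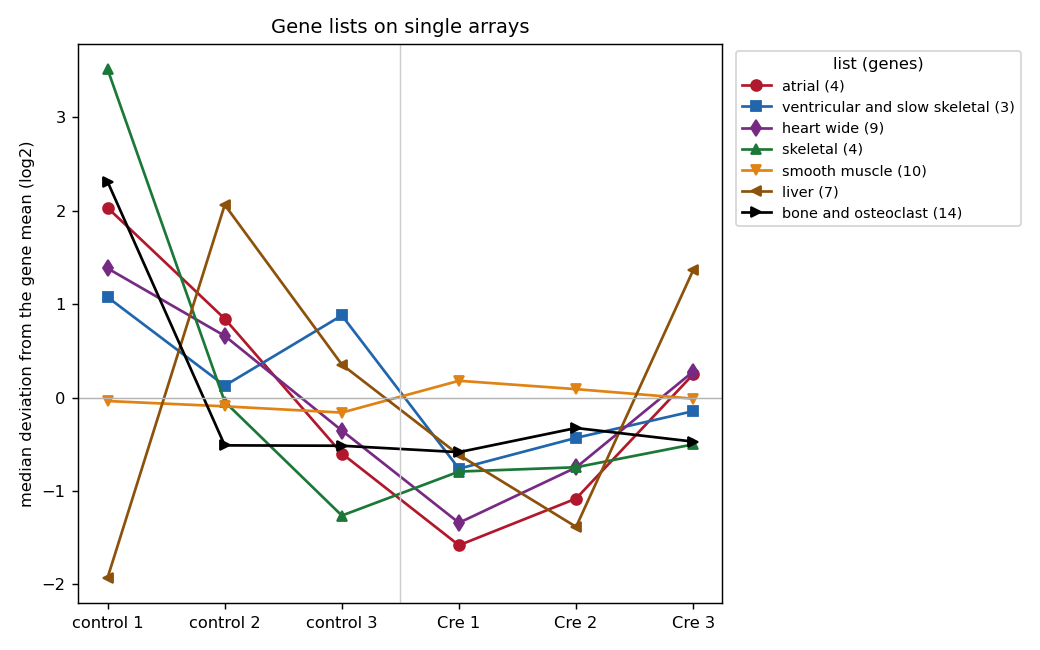
Median over the genes of a list of the deviation from the gene mean (vertical axis, log2) on each of the 6 arrays (horizontal axis), for 4 groups of striated muscle genes and the smooth muscle, liver and bone lists; the legend gives the number of matched genes, and lines join values of a list only. Skeletal and bone genes peaked on control 1, liver genes on control 2 and Cre 3, and smooth muscle genes stayed between -0.16 and 0.18.

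Compared by genotype, 2 of the 32 tested members fell in Cre-labelled lungs, none rose and 30 did not pass, where 3.56% of all 27022 tested probe sets passed, 2.16% as lower and 1.41% as higher. An unadjusted limma p under 0.05 was found for 21 members, against 19.5% of all tested probe sets. The members that did not reach the filter were Ckmt2, Trdn, Tnnc2 and Tnnt3. For Myh7 the control mean was 8.92 with an SD of 0.38 and the Cre mean 7.89 with an SD of 0.33, over 3 arrays each. It fell by 1.03 with an SE of 0.21, or 2.04-fold, at a limma adjusted p of 0.031. Pgam2 averaged 6.47 (SD 0.54) in the controls and 4.205 (SD 1.12) in the Cre-labelled lungs, and it fell by 2.27 with an SE of 0.51, or 4.82-fold, at a limma adjusted p of 0.044. Both calls were lost without control 1, without Cre 1 and without Cre 2 (limma adjusted p 0.081 to 0.13), fits in which no member passed and 8, 8 and 11 members had an unadjusted limma p under 0.05. Without control 1 the share of all tested probe sets past the threshold was 1.51% (0.914% as lower). Without control 2 the calls were Myh7 and Myl3, without control 3 they were Actc1 and Ckm, and without Cre 3 they were Myh7, Myom1 and Pgam2. Myl3 lay just short of the threshold (-1.32 ± 0.32 SE, adjusted p = 0.054).

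No atrial gene passed the limma threshold, and 3 of the 4 had an unadjusted p under 0.05. Their log2 differences ran from -2.87 ± 1.15 SE for Nppa to -1.04 ± 0.48 SE for Myl4 (limma adjusted p 0.16 to 0.28 over the 4 genes), with a median of -1.61. The median was -1.32 for the ventricular and slow skeletal genes, -1.18 for the heart-wide genes and -1.17 for the tested shared genes. Over all tested probe sets it was 0.00. For Myh3 and Mylpf it was -1.36, but Myh3 passed the filter through control 1 alone. Their median is therefore not set against that of all probe sets. Without control 1, Myh3 was not tested and Mylpf was at -0.33. In all, 31 of the 32 tested members had a lower Cre mean (49.9% of all tested probe sets), Smpx being the exception with 0.08 ± 0.30 SE. The 31 include Myh3 and Nppb, which did not reach the filter without control 1, and Nppb is also in the heart-wide median. For both genes a lower Cre mean is tied to how they passed the filter. The median over the tested members was -1.20 with all arrays and -0.71 without control 1, when 30 members were tested.

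Leaving out control 1 moved the groups by unequal amounts. Acta1 went from -1.54 ± 0.91 SE to -0.16, and Mylpf from -1.44 ± 0.75 SE to -0.33, while Myh3 and Nppb no longer reached the filter. Myl7 went from -1.07 to -0.70 and Nppa from -2.87 to -1.55. Myom1 was -0.75 with all arrays and -0.72 without control 1. Myl2 was -2.78 and -2.93, but its value rested on the signal of Cre 1 below the filter level: it was -1.14 without Cre 1 and -0.73 with an offset of 64 added to the linear signals.

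The groups did not overlap for 9 of the 32 tested members, all lower in Cre-labelled lungs, where this held for 12.8% of all tested probe sets and, before the filter, for 9.68% of all probe sets; 13.3% of the tested ones had the Cre-labelled lungs higher, and no member did. These were Myl2, Myl3 and Myh7, the heart-wide genes Ryr2 and Hspb7, and the shared genes Myom1, Myoz2, Pgam2 and Acta1. None of the atrial genes was among them. For Acta1 the gap between the lowest control and the highest Cre-labelled lung was small, at 5.82 against 5.77, and for Hspb7 it was 4.45 against 4.27. The groups overlapped on the other tested Hspb7 probe set, which was about as bright.

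**Figure D4:**
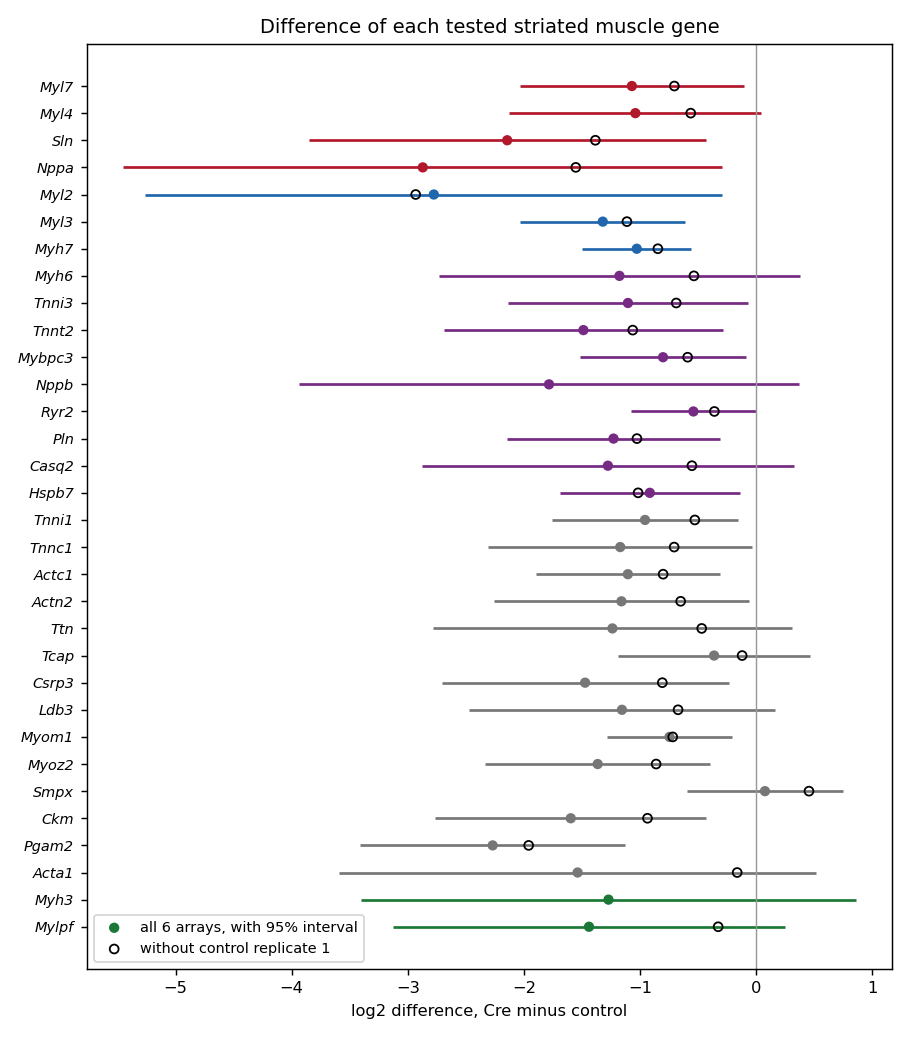
Log2 difference, Cre minus control (horizontal axis), of each of the 32 tested members (vertical axis), with filled points and 95% intervals of the limma fit on all 6 arrays and open points for the fit without control 1; colours are the gene groups, and Nppb and Myh3 have no open point. Acta1 and Mylpf moved close to 0 without control 1, while Myom1 went from -0.75 to -0.72; the value of Myl2 rests on Cre 1 and was -1.14 without that array.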

How the data were processed

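The authors deposited log2 signals for 45101 probe sets, with MAS5 and affy named per the submitters' processing notes, without versions; raised to the power of 2, the mean after trimming 2% at each end was 150 on every array. MAS5 is a background-corrected summary, and 4.93% to 6.50% of values lay below 0, where log2 differences are mostly noise. Values were used without an offset. The 64 control probe sets were left out. Symbols came from the platform annotation, updated by gene identifier through a RefSeq table (GRCm38.p6); 34945 probe sets had 1 symbol, 932 had several and 9160 had none. The brightest probe set stood for each gene. Of 140 entries in the other lists, 128 were matched; a bone list was added after values had been seen.

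Probe sets with a mean at or above the 40th percentile (27022) went into limma 3.58.1 (R 4.3.3; intensity trend, no covariates, two-sided, Benjamini-Hochberg over all, threshold 0.05). The fit was tested on simulated data. Alternatives were quantile normalization, a common median, offsets of 1 and 64, other filters, no trend, array weights, a replicate block, each array left out, averaged probe sets per gene, other thresholds and, added after seeing the data, a floor at the filter level. The members and lists were chosen with earlier results of these data known. Named were all members, of each list the 3 genes of widest range and those past the threshold, and the 12 genes most correlated with the heart-wide members. A few further list genes were named outside these rules. The limma p-values set the group difference against the spread between these arrays, which the fit draws toward that of probe sets of like signal. The number of arrays limits the precision. Figures were drawn with matplotlib 3.10.9.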

Additional observations from a re-analysis of the deposited data

How the results depend on the processing

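The number of arrays and the noise of signals near the filter level limit every value here. The count of members past the threshold was 2 of 32 tested. It was 1 without a filter (36 members tested), with the filter at the 60th percentile (23 tested) and with the replicate number as a block. Pgam2 did not reach the filter at the 60th percentile and was not tested there. Without an intensity trend the count was 0, and 11 members had an unadjusted limma p under 0.05. With the floor at the filter level (added after seeing the data) it was 4. Without 1 array it was 0 to 3 (0 without control 1, Cre 1 or Cre 2). In the other alternatives it was 2 or 3. Myh7 was called in all but the fit without a trend and those without control 1, control 3, Cre 1 or Cre 2. Over all probe sets the count of 963 became 171 without a trend, 2120 at an adjusted p of 0.10 and 308 to 499 without 1 array. The block used numbers that did not pair the arrays: the deviations of same-numbered arrays correlated at -0.01, 0.20 and 0.14. With the replicate block the count over all probe sets was 1309.

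The offset of 64 lowered the range between arrays to 1.07 for the ventricular, 1.56 for the heart-wide, 1.53 for the shared and 2.32 for the skeletal genes, from 1.84, 2.72, 2.55 and 3.98, and the ventricular median difference to -0.73. With that offset 35 members reached the filter, against 32 in the main fit. With probe sets averaged per gene, 24 members reached the filter, and Sln and Myl3 did not. The range between arrays was then 2.42 for the atrial genes left, from 3.61. It was 3.90 for Myl2 and Myh7, the ventricular genes left. Their median difference of -1.90 rested on the Cre 1 value of Myl2 below the filter level. Without 1 array, median differences ran from -2.30 to -1.04 (atrial), -1.64 to -1.11 (ventricular), -1.68 to -0.64 (heart-wide), -1.72 to -0.69 (shared) and -2.29 to -0.33 (skeletal). The ranges between arrays ran from 2.57 to 3.62, 1.42 to 1.91, 1.97 to 2.76, 1.55 to 2.63 and 0.79 to 4.40 in the same order, the lowest skeletal value being that without control 1. The filter was applied anew in each of these fits, with 30 members tested without control 1 and 35 without control 3. The genes behind a median thus differed between fits, and Mylpf was the only skeletal gene left without control 1. The skeletal spans therefore do not describe a single set of genes. Smpx changed sign with array weights (-0.11) and between -0.30 and 0.45 without 1 array. Of 493 alternative values of single members 470 kept their direction and side of the threshold. A member not called in the main fit counts as kept when it stays uncalled, and 30 of 32 were not called. The 470 therefore say little about the calls of Myh7 and Pgam2. A call was lost in 13 values, all of Myh7 or Pgam2, and gained in 8, and 2 values changed sign.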
